A study of Mus musculus with 7 samples.

Results

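The 8 genes described here belong to the sterol arm of isoprenoid metabolism in the mouse. Hmgcs1, Idi1, Fdps, Sqle, Lss and Cyp51 encode enzymes of cholesterol synthesis, and Insig1 and Srebf2 encode regulators of it. They were found by gene symbol, 8 of the 38293 genes in the table, and all 8 were among the 14869 genes that passed a filter on low counts. The measurement was RNA sequencing of small intestinal scrapings, taken from the last part (the ileum) of male C57BL/6NRJ mice that were housed individually. The age of the mice is given as 8 weeks and is not said to be that at sampling. All mice received a purified high fat (40% of energy), low calcium AIN93G diet with normal cystine for 1 week of acclimatization. They then stayed for 2 weeks on that diet, which holds 0.38% cystine (normal cys, n = 4 libraries), or on the same diet with the added L-cystine replaced by alanine, which leaves 0.08% cystine (low cys, n = 3 libraries). Cystine is the oxidized dimer of the amino acid cysteine, and the comparison asks what its restriction does to gene expression in the small intestine. Each library is 1 mouse, replicate numbers only name the mice, and the mice were fasted before sacrifice.

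Cells make cholesterol from acetyl-CoA by way of mevalonate, the isoprenoid diphosphates, squalene and lanosterol. The pathway is controlled by the transcription factor SREBP2, which is made as a precursor in the endoplasmic reticulum. When sterols are low, the escort protein SCAP carries the precursor to the Golgi, where the proteases encoded by Mbtps1 and Mbtps2 release the active factor. When sterols are plentiful, INSIG proteins hold SCAP back. The small intestine is known both as an organ that absorbs cholesterol and as a site of its synthesis.

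Libraries held 19712355 to 22412703 counts on the normal cys diet and 14888760 to 21942518 on the low cys diet. The 8 genes had between 566 counts (Lss) and 9319 counts (Hmgcs1) in a library. Values are given as CPM, the counts of a gene relative to the size of its library after TMM scaling. The ileal markers Fabp6, Slc10a2, Fgf15 and Cdx2 were present, with a summed level of 4620 to 8300 CPM on the normal cys diet and 3430 to 6210 CPM on the low cys diet, and 3 of 4 pancreatic acinar markers were at 0 in every library. Markers of stromal cells summed to 4.11 to 8.93 CPM on the normal cys diet and 11.8 to 18.6 CPM on the low cys diet. Those of B and plasma cells summed to 36.9 to 111 CPM and 148 to 217 CPM. Neither sum overlapped between the diets. Of the stromal markers, Col3a1 (log2 fold change 1.58) and Dcn (1.55) did not overlap. Col1a1 (1.025), Col1a2 (0.81) and Pdgfra (0.69) overlapped, and Lum was not tested. The B and plasma cell sum was carried by Jchain, the joining chain of secreted antibodies (log2 fold change 1.25). Cd79a (0.23), Ms4a1 (0.23) and Cd79b (−0.11) overlapped. The summed enterocyte markers were 22500 to 42500 CPM and 10200 to 25700 CPM, and the estimates of all 6 were lower on the low cys diet. Of these, Vil1 (log2 fold change −0.375) did not overlap between the diets, and Alpi, Fabp1, Fabp2, Apoa1 and Apoa4 overlapped. Estimates were higher on the low cys diet for all 6 crypt and proliferation markers (median log2 fold change 0.60, summed level 65.8 to 255 CPM and 149 to 288 CPM), all 5 smooth muscle markers (median 1.44, 2.15 to 10.8 CPM and 5.22 to 32.6 CPM) and all 5 macrophage markers (median 0.50, 8.54 to 30.3 CPM and 25.4 to 36.6 CPM), and these 3 sums overlapped between the diets. The part of these differences in the values below was not tested, and in scrapings fewer cells of a type and less RNA per cell cannot be told apart.

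Among the early enzymes after TMM scaling, Idi1 was the gene that separated the diets, at a level 1.37-fold higher on the low cys diet, whereas Hmgcs1 and Fdps overlapped. Idi1 encodes isopentenyl diphosphate isomerase, which interconverts the isoprene building blocks of the pathway. It lies on chromosome 13 (GRCm38, chr13:8885501-8892451, plus strand, 5 exons). Its level was 95.4, 95.7, 72.9 and 88.9 CPM in normal cys replicates 1 to 4, and 113, 146 and 103 CPM in low cys replicates 1 to 3. Every low cys library was above every normal cys library, with means of 88.2 ± 10.7 (SD, n = 4) and 121 ± 22.7 (SD, n = 3). The log2 fold change was 0.45 (SE 0.16, 95% confidence interval 0.10 to 0.81). The two-sided exact permutation test, with 35 possible arrangements, gave p = 0.0286, which is the smallest p that 4 against 3 libraries allow, and the quasi-likelihood test of edgeR gave an unadjusted p = 0.0185. Adjusted by Benjamini-Hochberg over all genes tested, the edgeR p was 0.794. Leaving out 1 library cannot bring overlap into values that are already separated, so the separation seen then is no further support. The edgeR p was 0.0517 without normal cys replicate 3, the lowest library. It was 0.0806 (log2 fold change 0.32) without low cys replicate 2, the highest. Of the 50-base stretches of Idi1 transcripts, 20% also occur in other genes, mainly in Gm13502, so reads may have been divided between them. Gm13502 had 16.1 ± 5.15 CPM (SD, n = 4) on the normal cys diet and 24.4 ± 6.1 CPM (SD, n = 3) on the low cys diet. The diets overlapped for Gm13502, at 20 CPM in low cys replicate 3 and 21.1 CPM in normal cys replicate 4 (edgeR unadjusted p = 0.0502). The counts of Idi1 and Gm13502 were also added, a sum formed after the data were seen and made up mostly of Idi1. For this sum the diets did not overlap (log2 difference 0.47, exact permutation p = 0.0286).

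Hmgcs1 encodes the cytosolic synthase that forms HMG-CoA, the precursor of mevalonate, and lies on the same chromosome (chr13:119690462-119708086, plus strand, 10 exons). It measured 339, 313, 295 and 374 CPM on the normal cys diet and 380.0, 486 and 344 CPM on the low cys diet. Low cys replicate 2 stood above the rest, and low cys replicate 3 lay inside the normal cys range. The log2 fold change was 0.29 (SE 0.16, 95% interval −0.07 to 0.65; edgeR p = 0.104, adjusted p = 0.794; exact permutation p = 0.114). Scaled by total counts alone, which moves all genes upward on the low cys diet as described in the closing section, the unadjusted edgeR p was 0.0218. With that scaling the diets did not overlap for Hmgcs1. The nearest libraries were low cys replicate 3 at 359 CPM and normal cys replicate 4 at 350 CPM. Fdps, on chromosome 3 (chr3:89093592-89101967, minus strand, 10 exons), encodes farnesyl diphosphate synthase, from which sterols and nonsterol isoprenoids branch. It had 104, 113, 63.9 and 93.7 CPM on the normal cys diet and 83.1, 112 and 84.0 CPM on the low cys diet, and the low cys values lay within the normal cys range. The log2 fold change was −0.01 (SE 0.21, 95% interval −0.47 to 0.45; edgeR adjusted p = 0.994; exact permutation p = 1). The value of Fdps is uncertain, since 64.1% of the 50-base stretches of Fdps also occur in other genes.

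**Figure D1:**
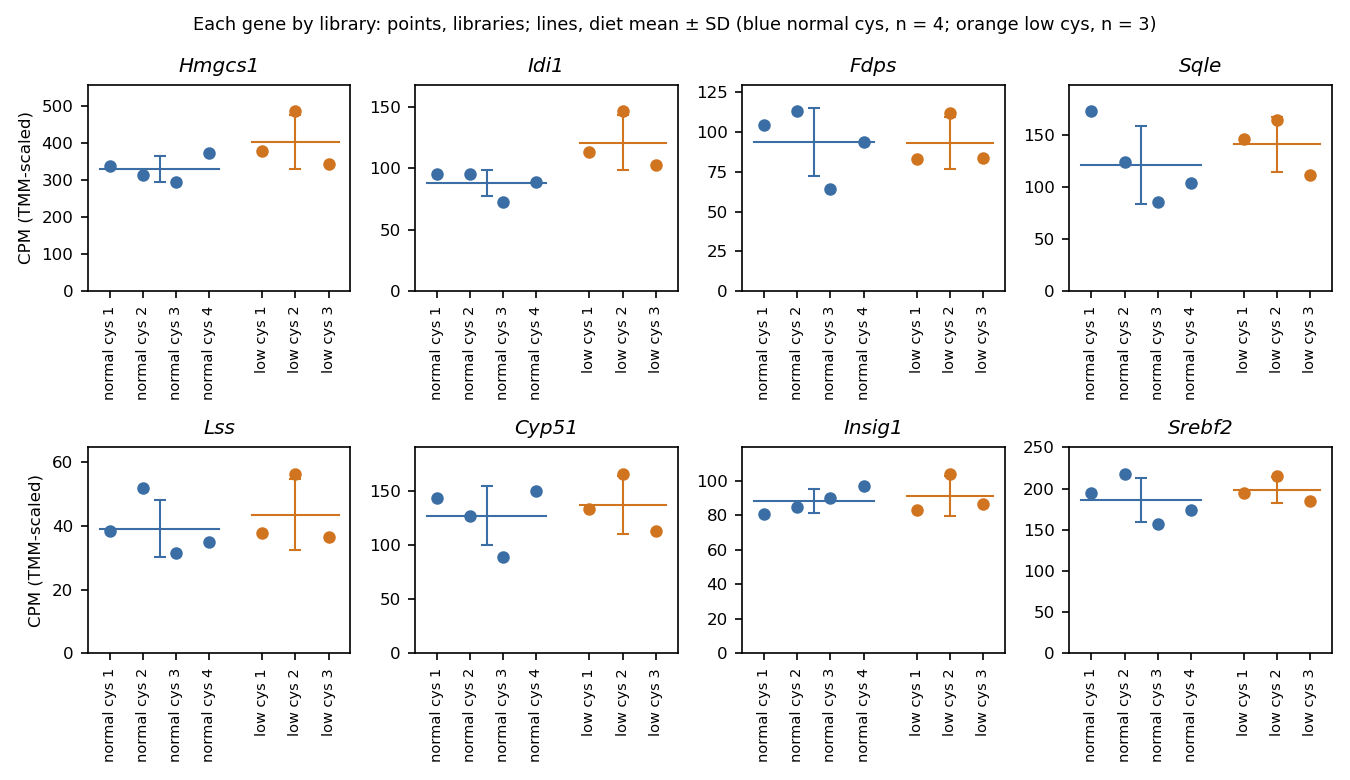
Level of each of the 8 genes in each library, in TMM-scaled CPM on axes that start at 0. Points are libraries, horizontal lines the mean of a diet and bars its SD (normal cys, blue, n = 4; low cys, orange, n = 3). Idi1 is the gene whose lowest low cys library (103 CPM) lies above its highest normal cys library (95.7 CPM).

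The enzymes that turn squalene into sterols varied from mouse to mouse more than between the diets. Sqle encodes squalene epoxidase, an oxygen-dependent and rate-limiting step, and lies on chromosome 15 (chr15:59315077-59331192, plus strand, 11 exons). Its level was 173, 124, 85.3 and 103 CPM on the normal cys diet and 146, 164 and 112 CPM on the low cys diet. The highest and the lowest library were both normal cys, with a ratio of 2.02, and the log2 fold change was 0.22 (SE 0.24, 95% interval −0.33 to 0.76; edgeR adjusted p = 0.836; exact permutation p = 0.429). Lss encodes lanosterol synthase, which closes the sterol rings, and lies on chromosome 10 (chr10:76531588-76557138, plus strand, 21 exons). Lss measured 38.3, 51.7, 31.5 and 34.8 CPM on the normal cys diet and 37.6, 56.3 and 36.45 CPM on the low cys diet. In each diet 1 library was high, normal cys replicate 2 and low cys replicate 2, and the log2 fold change was 0.15 (SE 0.21, 95% interval −0.33 to 0.63; edgeR adjusted p = 0.857; exact permutation p = 0.514). The exons of Lss overlap those of the antisense gene 4930483K19Rik by 381 bases, and the strand setting of the counting is not given in the sources used here. Cyp51, on chromosome 5 (chr5:4081145-4104746, minus strand, 10 exons), encodes the cytochrome P450 that demethylates lanosterol. It measured 144, 127, 88.9 and 150.1 CPM on the normal cys diet against 133, 166 and 113 CPM on the low cys diet. The diets overlapped, with a log2 fold change of 0.11 (SE 0.20, 95% interval −0.35 to 0.57; edgeR adjusted p = 0.89; exact permutation p = 0.657).

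The regulators differed least between libraries. Insig1, on chromosome 5 (chr5:28071363-28078662, plus strand, 5 exons), encodes the protein that retains SCAP in the endoplasmic reticulum and is itself a target of SREBP2. Insig1 had 80.6, 85.1, 90.2 and 97.0 CPM on the normal cys diet and 83.0, 104 and 86.7 CPM on the low cys diet. Its highest library was 1.29 times its lowest, the smallest such ratio of the 8 genes. The log2 fold change was 0.05 (SE 0.13, 95% interval −0.24 to 0.34; edgeR adjusted p = 0.924; exact permutation p = 0.686). Srebf2, which encodes SREBP2, lies on chromosome 15 (chr15:82147266-82205376, plus strand, 19 exons). Its level was 195, 218, 157 and 174 CPM on the normal cys diet and 194, 215 and 185 CPM on the low cys diet. All low cys values lay within the normal cys range, and the log2 fold change was 0.09 (SE 0.14, 95% interval −0.23 to 0.42; edgeR adjusted p = 0.871; exact permutation p = 0.514). The intervals of Insig1 and Srebf2 leave room for differences of either sign.

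Over the 8 genes, 7 had a higher estimate on the low cys diet, where 51.2% of all genes tested did, and the median log2 fold change was 0.13 against 0.01 over all genes tested. An unadjusted edgeR p under 0.05 was found for 1 of the 8 genes, Idi1, which was higher. Among all genes tested, 5.49% had such a p, 2.66% as higher and 2.83% as lower on the low cys diet. After TMM scaling the groups did not overlap for 1 of the 8 genes, against 6.83% of all genes, 3.32% with every low cys library above and 3.51% with every one below. None of the 8 genes, and 0% of all genes tested, had an edgeR adjusted p under 0.05. With DESeq2, 0 of the 8 genes had an adjusted p under 0.05 and 1 of 8 an unadjusted p under 0.05. Over all genes with such a value these were 0.0939% (16 of 17032) and 4.5% (1024 of 22778), sets not limited by the filter on low counts. Among the 14869 genes tested, 15 had a DESeq2 adjusted p under 0.05 and 932 an unadjusted p under 0.05. The median over the 8 genes fell to 0.01 on the log2 scale without low cys replicate 2, when 4 of the 8 estimates were higher, and it was 0.06 without normal cys replicate 3.

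The rest of the pathway was read from lists of its other enzymes, its branches and its regulators. Of the 14 other cholesterol synthesis enzymes, 8 had a higher and 6 a lower estimate, 0 had an unadjusted p under 0.05 in edgeR or in DESeq2, and the median log2 fold change was 0.03. The estimates ran from Sc5d, the sterol C5 desaturase (log2 fold change −0.25, SE 0.20), to Lbr, the lamin B receptor, which is also a sterol reductase (0.38, SE 0.25). Of the 5 genes of the nonsterol isoprenoid branch, 1 had an unadjusted p under 0.05 and was higher. This was Pdss1, a subunit of the synthase that makes the side chain of coenzyme Q (log2 fold change 0.29, SE 0.13, edgeR p = 0.0488, adjusted p = 0.794, exact permutation p = 0.0571). Pdss1 measured 17.6, 20, 17.7 and 15.9 CPM on the normal cys diet and 22.6, 21.3 and 21.4 CPM on the low cys diet. Ggps1, which makes geranylgeranyl diphosphate from the product of Fdps and was singled out after its values were seen, also did not overlap between the diets (14.8 ± 0.547 CPM, SD, n = 4, and 16.4 ± 1.23 CPM, SD, n = 3). The exact permutation p of Ggps1 was 0.0571 and its edgeR p 0.263. The lowest estimate of this branch was that of Nus1, a subunit of the dolichol-forming transferase (log2 fold change −0.05).

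Of 9 further regulators of SREBP processing, 6 had a higher and 3 a lower estimate, with a median log2 fold change of 0.16. An unadjusted p under 0.05 was found for 1 of them, Mbtps2, the protease that makes the last cut in SREBP release. Mbtps2 had 7.36, 5.58, 7.41 and 6.83 CPM on the normal cys diet and 10.2, 8.18 and 9.79 CPM on the low cys diet. Every low cys library was above every normal cys library (log2 fold change 0.47, SE 0.18, edgeR p = 0.0294, adjusted p = 0.794, exact permutation p = 0.0286). Srebf1, which encodes the SREBP that mainly drives fatty acid synthesis, had the lowest estimate of this list (−0.30, SE 0.24). The 4 other SREBP2 targets lay between Stard4, a sterol carrier (log2 fold change −0.08), and Acss2, an acetyl-CoA synthetase (0.16), and 0 of 4 had an unadjusted p under 0.05 in edgeR or DESeq2. In fatty acid synthesis, 7 of 9 genes had a higher estimate, with a median log2 fold change of 0.23. The only unadjusted p under 0.05 in that list was of a lower gene, Me1, the cytosolic malic enzyme that supplies NADPH. Me1 measured 9.97, 28.5, 47.4 and 44.1 CPM on the normal cys diet and 10.5, 15 and 18.9 CPM on the low cys diet. Its lowest library was a normal cys library, so the diets overlapped (log2 fold change −1.14, SE 0.48, edgeR p = 0.0452, adjusted p = 0.794, exact permutation p = 0.229). Fads1, a fatty acid desaturase, had the highest estimate (0.73, SE 0.44). No gene of these lists had an adjusted p under 0.05 in edgeR or in DESeq2. The 3 genes of the 5 lists with an unadjusted p under 0.05 became 0 without low cys replicate 1 and 8 without normal cys replicate 1. The count over all genes tested moved the same way. It was 817 of 14869 with all libraries, 258 of 15076 without low cys replicate 1 and 1764 of 14786 without normal cys replicate 1. With DESeq2 the genes of the 5 lists at an unadjusted p under 0.05 were 2, Mbtps2 and Me1, and the DESeq2 p of Pdss1 was 0.0742.

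**Figure D2:**
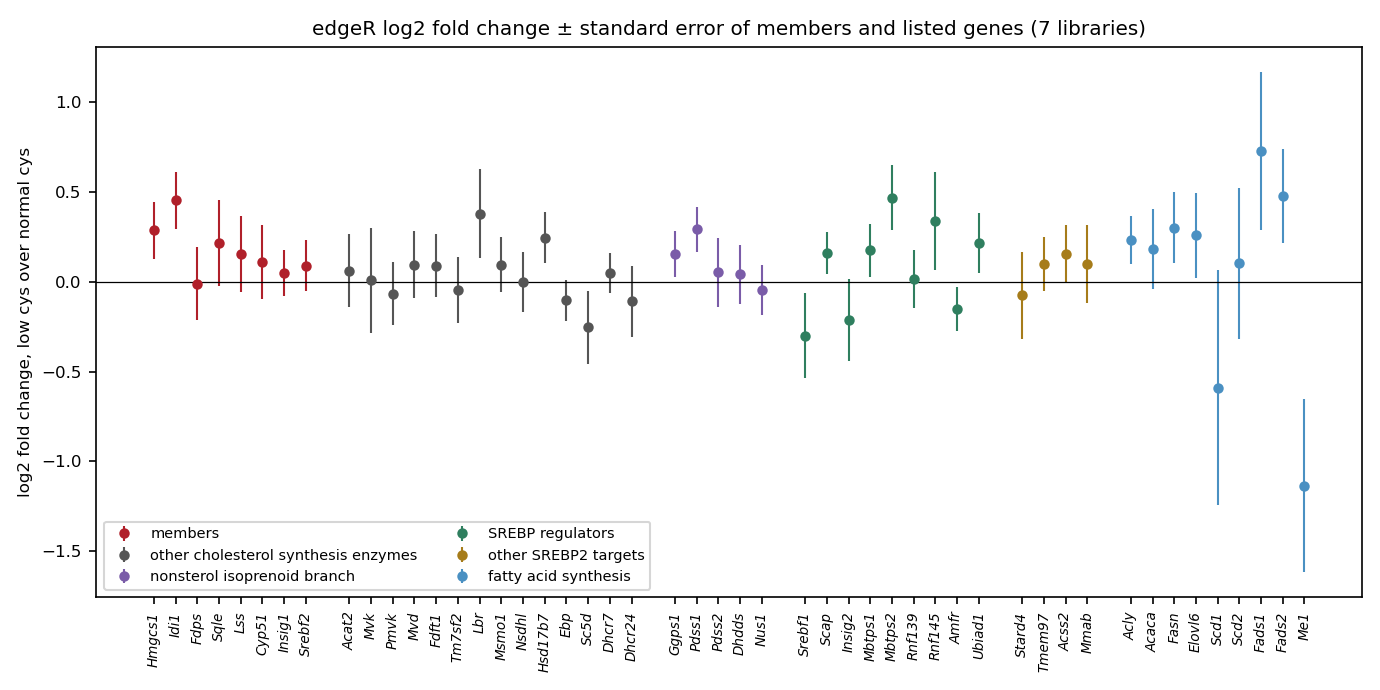
edgeR log2 fold change (low cys over normal cys, vertical axis) of the 8 genes (red) and of the 5 lists of related genes, with bars of 1 standard error over 7 libraries. Idi1 (0.45) and Mbtps2 (0.47) lie high with short bars, and Me1 lies lowest at −1.14 with a wide bar.

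Relative to the other 7 genes, Idi1 took a larger part of the transcripts on the low cys diet, and this comparison does not depend on how the libraries were scaled. Its share of the summed counts of the 8 genes was 8.17, 8.48, 8.24 and 7.97% in normal cys replicates 1 to 4, and 9.69, 10.1 and 9.67% in low cys replicates 1 to 3. The shares were nearly equal within each diet, at 8.21 ± 0.215% (SD, n = 4) and 9.82 ± 0.237% (SD, n = 3), and did not overlap. The difference of 1.6 percentage points had an exact permutation p = 0.0286, the smallest possible, unadjusted and 1 of 8 such comparisons. Of all genes tested, 6.48% did not overlap between the diets when divided by the same sum, 0.706% with every low cys library above. After TMM scaling 3.32% had every low cys library above. The sum holds Idi1 and was 0.0797 to 0.116% of counts on the normal cys diet and 0.111 to 0.148% on the low cys diet. Division by a sum that ran higher on the low cys diet moves genes downward there. The 0.706% therefore does not measure how rare the Idi1 share is. The share comparison was added after the levels were seen and is not independent of them. Other denominators, tried later and for Idi1 alone, are given as a description. Idi1 made up 11.9 ± 0.366% (SD, n = 4) and 14.6 ± 0.49% (SD, n = 3) when Hmgcs1, the most abundant of the 8, was left out of the sum. Among the counts of 20 cholesterol synthesis enzymes it made up 4.47 ± 0.277% (SD, n = 4) and 5.76 ± 0.395% (SD, n = 3). The shares of the other 7 genes overlapped between the diets, with permutation p-values from 0.2 (Fdps, 8.64 ± 1.16% and 7.57 ± 0.421%; exact, n = 4 and n = 3) to 0.914 (Sqle).

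**Figure D3:**
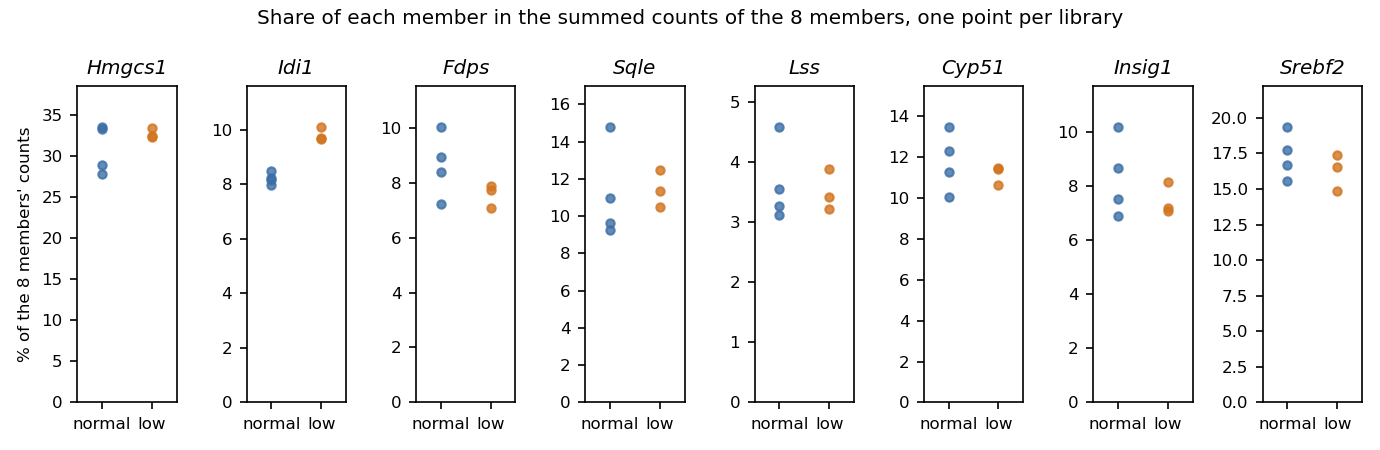
Share of each gene in the summed counts of the 8 genes, in percent (vertical axes start at 0), with 1 point per library (normal cys, blue, n = 4; low cys, orange, n = 3). The Idi1 shares fall into a normal cys group of 7.97 to 8.49% and a low cys group of 9.67 to 10.1%, and the other 7 genes overlap.

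Much of the variation of the 8 genes ran along individual mice. Their summed level was 1168, 1127, 885.3 and 1116 CPM on the normal cys diet and 1171, 1451 and 1064 CPM on the low cys diet. Normal cys replicate 3 was the lowest library for 7 of the 8 genes, all but Insig1, and lay on average 0.37 below the genes' own means on the log2 scale (mean deviation −0.37). Low cys replicate 2 was above the mean for all 8 genes, the highest library for 5 of them, and lay 0.36 above on average. These libraries also stood at an end of other measures. Normal cys replicate 3 had the highest share of mitochondrial counts, 11% of counts. Low cys replicate 2 came next with 8.43%, and the lowest library had 6.08%. Normal cys replicate 3 also had the lowest TMM factor (0.9004). Its 10 most abundant genes held 13.6% of counts, against 10.73% in the next library. It is labelled SI9, where the other labels have the form of X17SI4, and the meaning of this is not given. Low cys replicate 2 had the highest summed smooth muscle markers (32.6 CPM, against 12.8 CPM in the next). The part of these measures in the gene levels was not tested.

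Each gene was next compared with the mean of the other 7 over the 7 libraries, 8 relations in all, with permutation p-values not adjusted for their number. Pearson's r was highest for Idi1, and Spearman's rho for Lss and Srebf2. For Lss, Pearson's r was 0.792 (exact permutation p = 0.0202) and Spearman's rho 0.857 (p = 0.0238), and for Srebf2 they were 0.845 (exact permutation p = 0.0194) and 0.857 (p = 0.0238). Sqle had r = 0.748 (exact permutation p = 0.047) and rho = 0.786 (p = 0.048). Idi1, Fdps and Cyp51 had r = 0.861, 0.812 and 0.844 (exact permutation p = 0.0319, 0.0333 and 0.0242), with rho of 0.607, 0.5 and 0.536 (exact permutation p = 0.167, 0.267 and 0.236). Hmgcs1 had r = 0.765 (exact permutation p = 0.0635) and rho = 0.429 (p = 0.354). Insig1 did not follow the others, with r = 0.271 (exact permutation p = 0.551) and rho = −0.107 (p = 0.84). The relations rested on the 2 libraries farthest from the median, normal cys replicate 3 and low cys replicate 2. Without them r was 0.61 for Srebf2, between 0.0765 and 0.382 for Cyp51, Sqle, Lss and Fdps, and below 0 for Idi1 (−0.214), Hmgcs1 (−0.532) and Insig1 (−0.707). Within the diets, that is for deviations from the diet means, r ranged from 0.217 (Insig1) to 0.993 (Idi1). These values again include the 2 farthest libraries and were not computed without them. Of the 28 pairs of genes 26 had a positive r, and the median was 0.649.

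**Figure D4:**
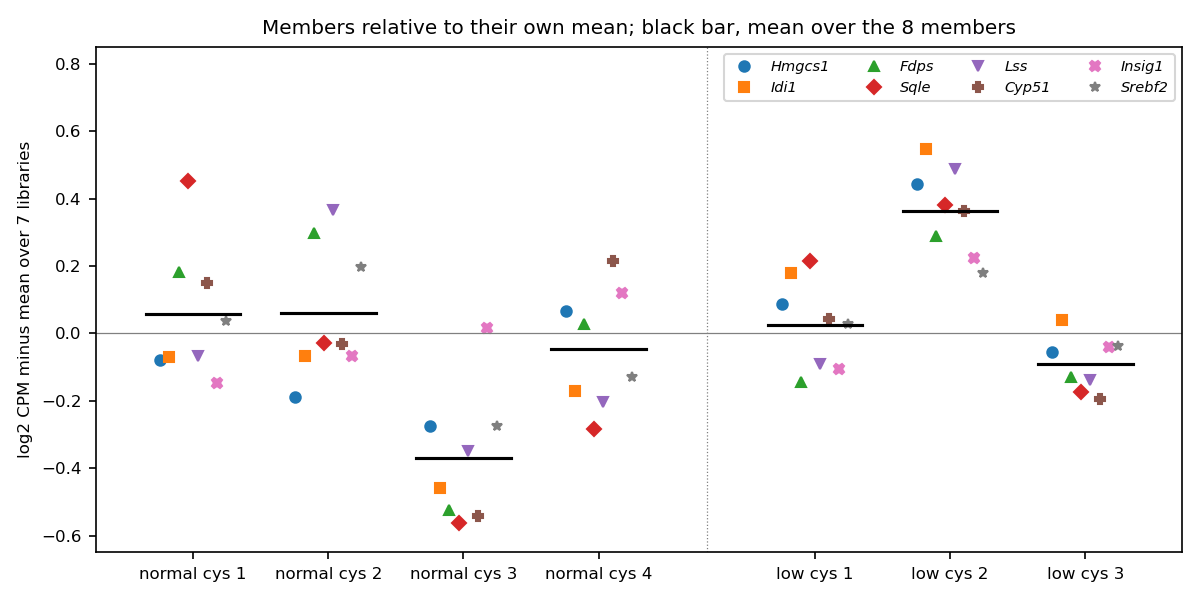
log2 CPM of each gene minus its own mean over the 7 libraries (vertical axis), by library. Symbols are genes and black bars the mean of the 8 genes, which is lowest in normal cys replicate 3 (−0.37) and highest in low cys replicate 2 (0.36), with the other 5 libraries between −0.09 and 0.06.

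The genes outside the pathway lists whose levels ran most like the mean of the 8 genes (z-scored log2 CPM, 7 libraries, mean CPM of at least 10) were Herc1 with r = 0.987, Plekha5 with r = 0.967, Cbl with r = 0.96, Tiam2 with r = 0.955, Ccar1 with r = 0.938 and Nfe2l1 with r = 0.937. All 6 were lowest in normal cys replicate 3 and highest in low cys replicate 2, as the mean of the 8 genes was. Herc1, a large ubiquitin ligase, ranged from 55.4 to 76 CPM. An r above 0.5 was found for 8.07% of the 8560 genes outside the lists. Of the 14 other cholesterol synthesis enzymes 7 had such an r, with Hsd17b7 (0.881) and Msmo1 (0.877), which act between lanosterol and cholesterol, at the top and Sc5d (−0.251) at the bottom. Of the 9 fatty acid synthesis genes 6 did, led by the desaturase gene Fads2 (0.898). None of the 9 SREBP regulators or of the 5 nonsterol isoprenoid genes reached 0.5, and Srebf1 ran opposite to the mean of the 8 genes (−0.527). Of the 4 other SREBP2 targets 1 did, the cobalamin adenosyltransferase gene Mmab (0.8), and Stard4 (0.32), Acss2 (0.299) and Tmem97 (−0.0178) did not. These are descriptions over 7 libraries, of which 2 stood apart in the genes compared.

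Per kilobase of exon, Hmgcs1 was the most abundant of the 8 transcripts and Lss the least. Hmgcs1 had 112 CPM per kilobase (range over 7 libraries 91.4 to 150) and Fdps, with the uncertainty given above, 75.3 (51.5 to 91). Srebf2 (38.3, range 31.5 to 43.7), Insig1 (33.2, 29.9 to 38.6), Cyp51 (30.7, 20.7 to 38.8), Idi1 (29.2, 20.8 to 41.8) and Sqle (23.4, 15.4 to 31.1 CPM per kilobase) followed, and among these 5 each overlapped the one after it in range. Lss had 3.8 CPM per kilobase (2.92 to 5.22), below the range of every other gene. The place of Sqle depends on the length used. The deposited exon length of 5546 bases counts every annotated exon, and with the 2758 bases of its longest coding transcript in the GENCODE M21 annotation Sqle had 47 CPM per kilobase and ranked next after Fdps. Lss also depends on it in value, with a deposited length of 10787 bases and 4667 bases in its longest coding transcript. With the latter Lss had 8.77 CPM per kilobase (6.74 to 12.1), still the least of the 8. Insig1 moved from rank 4 to rank 7, and Hmgcs1 and Fdps kept their places.

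The promoters of the 8 genes were searched for the boxes known from the promoters of SREBP2 targets. RefSeq promoter windows (GRCm38.p6, 250 bases before to 50 bases after the start site, 300 in all) were matched for 6 of the 8 genes, not for Fdps and Sqle. Both strands were searched. The box CCAAT, bound by NF-Y, was in all 6 windows and in 37.4% of 32851 promoter windows, and the box GGGCGG, bound by Sp1, was in all 6 and in 35.7%. In Idi1 the boxes began at −45 and −14 (CCAAT) and −69 (GGGCGG) from the RefSeq start site. These lie past the first annotated transcript start of Idi1, and the stretch before that start, which ends at −106, held no match. The CCAAT box of Cyp51, at −29, also lies past the first annotated transcript start. The sterol regulatory element in the form TCACNCCAC was in 1 of 6, Hmgcs1, and in 1.24% of all windows. A shorter form, TCACCCCA, which overlaps it and was added after the sequences were seen, was in Hmgcs1 and Srebf2 and in 1.56% of all windows. Of 12 other cholesterol synthesis enzymes with a promoter window, 11 held CCAAT, 11 GGGCGG and 0 either sterol element. The upstream stretches of 3 genes are shown, those of the enzyme and of SREBP2 with a sterol element and that of Insig1, the regulator that varied least and has none of these letters. They are on the plus strand, end before the first annotated transcript start, and capitals mark the matches to these boxes, ATTGG and CCGCCC being CCAAT and GGGCGG on the other strand.
Hmgcs1, chr13:119690101-119690350: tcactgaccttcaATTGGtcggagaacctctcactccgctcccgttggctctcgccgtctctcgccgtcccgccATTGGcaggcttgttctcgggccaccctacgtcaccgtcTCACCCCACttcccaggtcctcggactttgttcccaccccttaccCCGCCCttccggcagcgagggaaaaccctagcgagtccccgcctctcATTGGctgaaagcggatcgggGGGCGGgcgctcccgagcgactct
Srebf2, chr15:82147019-82147180: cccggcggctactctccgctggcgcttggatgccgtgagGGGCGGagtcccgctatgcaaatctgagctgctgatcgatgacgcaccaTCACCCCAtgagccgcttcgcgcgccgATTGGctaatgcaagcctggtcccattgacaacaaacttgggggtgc
Insig1, chr5:28071162-28071362: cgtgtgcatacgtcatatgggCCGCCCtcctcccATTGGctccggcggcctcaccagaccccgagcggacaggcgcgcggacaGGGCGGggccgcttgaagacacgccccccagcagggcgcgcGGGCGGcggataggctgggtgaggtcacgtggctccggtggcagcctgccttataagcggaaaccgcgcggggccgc
Counted from the RefSeq start site, the sterol element of Hmgcs1 began at −137, with upstream CCAAT boxes beginning at −237, −176 and −45. That of Srebf2 began at −162, with a CCAAT box beginning at −135. A match is a run of letters and was not tested as a binding site.

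**Figure D5:**
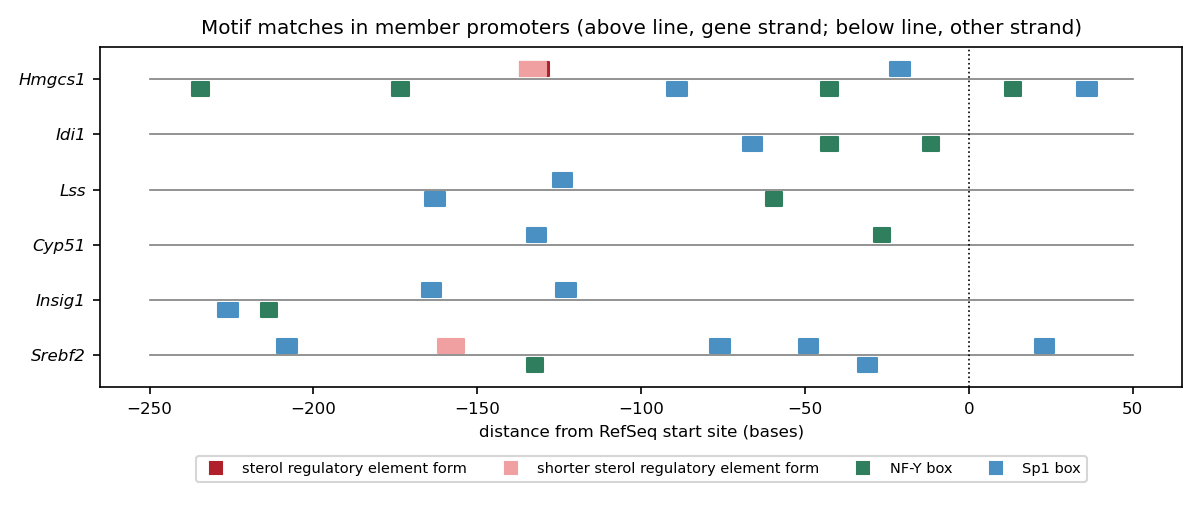
Matches of the 4 searched boxes in the promoter windows of 6 genes, against the distance from the RefSeq start site in bases (dotted line). Marks above a line are on the gene's strand and marks below on the other, and sterol element matches are seen in Hmgcs1 and Srebf2 only, beginning at −137 and −162.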

How the data were processed

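RNA was sequenced from small intestinal scrapings of 4 normal cys and 3 low cys mice. The authors deposited raw counts per gene with gene lengths. Per the study's methods and the submitters' processing notes, libraries were polyA-selected and stranded, paired reads of 50 bases were checked with FastQC 0.11.8, trimmed with Trim Galore 0.6.5, freed of ribosomal reads, aligned to GRCm38 with STAR and counted with featureCounts. Groups came from the diet labels, which give no batch. The exon length column was used for levels per kilobase.

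Genes were kept by filterByExpr of edgeR (minimum count 10, total 15), scaled by TMM and tested by the robust quasi-likelihood test of edgeR 4.0.16 (R 4.3.3), adjusted by Benjamini-Hochberg over all 14869 genes. Single-gene permutation tests used log2 CPM with a prior count of 2. The script was tested on simulated data. Alternatives were DESeq2 1.42.0, limma-voom (limma 3.58.1), other scalings and filters, a non-robust fit and leaving out each library. No libraries were duplicates. The members, lists and tests were chosen with earlier results of these data known. Named were the 8 genes, in each list those with an unadjusted p under 0.05 and the highest and lowest estimate, the 6 genes most like the mean of the 8, and genes said to be chosen later. Of 102 listed and marker genes, 101 were matched. Correlation p-values were not adjusted. Intervals of fold changes come from the edgeR fit.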

Additional observations from a re-analysis of the deposited data

How the results depend on the processing

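None of the 8 genes had an adjusted p under 0.05 under any of the 7 alternative tests, scalings and filters or with any 1 library left out, with unadjusted p counts as follows. No paired analysis was possible because the labels give no replicate numbers and the numbers used here only name different mice. Scaling by total counts moved the median of all genes by 0.144 on the log2 scale, to 0.152, and that of the 8 genes to 0.262. Under it, 2 genes in place of 1 had an unadjusted edgeR p under 0.05, and 2 had a permutation p under 0.05 (exact). Leaving out 1 library gave 0 to 1 of the 8 genes at an unadjusted p under 0.05 (0 without normal cys replicate 3 and 0 without low cys replicate 2). Over the genes of the 5 other lists, 3 with all libraries, it gave 0 (without low cys replicate 1) to 8 (without normal cys replicate 1), and 1 without each of normal cys replicates 3 and 4 and low cys replicates 2 and 3. Over all genes tested, such a p was found for 817 of 14869 with all libraries and 258 of 15076 without low cys replicate 1. It was found for 1764 of 14786 without normal cys replicate 1. For the 5 lists the count was 2 with DESeq2, 2 with its size factors in edgeR and 4 with total counts. Directions changed for genes near 0. Fdps was 0.0107 by limma-voom, 0.116 with total counts and 3.14e-05 with at least 10 counts in every library, and ranged from −0.161 to 0.108 with libraries left out. Cyp51 ranged from −0.0319 to 0.232, Lss from −0.0535 to 0.333 and Insig1 from −0.0339 to 0.124. Idi1, Hmgcs1, Sqle and Srebf2 kept their direction throughout. The diets did not overlap for 2 genes, Hmgcs1 and Idi1, without normal cys replicate 4 or low cys replicate 3. For Idi1 this had to be so, since leaving out a library cannot bring overlap. With a library left out, the permutation test cannot go below 0.0667 or 0.1 and was not run. The biological coefficient of variation between mice was 25.5% over all genes tested. For the 8 genes it ran from 15.2% (Insig1) to 23.8% (Sqle), and the intervals of single genes are wide.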
